A study of Mus musculus with 44 samples.

Results

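The collagen genes, the collagen chaperone gene Serpinh1 and the matrix glycoprotein gene Sparc were followed through 20 poly-A RNA-seq libraries of mouse stomach and small intestine organoids. Members were every row of the raw count table whose symbol is Col, a number, a and a number, together with Serpinh1 and Sparc. This gave 46 of 19733 gene symbols, 44 of them collagen genes. Organoids are epithelial cultures grown from stem cells as three-dimensional structures. They were kept in Matrigel, an extract of basement membrane that itself contains collagen protein, and were taken out of it before RNA extraction.

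All animals were C57BL/6. In the enhancer experiment, 9 libraries came from stomach antrum organoids that all overexpressed HNF4A, a transcription factor of the intestinal epithelium. An enhancer that lies 3' of Cdx2 had been removed by CRISPR-Cas9 in the germline, on both alleles in the homozygous group (3 libraries), on 1 allele in the heterozygous group (3) and on none in the wild-type group (3). In the second experiment, gastric organoid lines carried lentiviral CDX2, the other intestinal factor of the study (3 lines), lentiviral HNF4A (3) or lentiviral GFP (3), and 2 libraries came from small intestine organoids without a named transgene. Nothing in the sources used here gives the promoters or species of the transgenes, or the age of the animals. The homozygous libraries are named deletion in the count table and were matched to the homozygous label. The titles and the tissue tag of the lentiviral lines name gastric organoids while another field names small intestine, and the first pair was followed. Summed gastric markers were 0.931 and 10.1 CPM (counts scaled to 1000000 of the TMM-adjusted library size) in the small intestine organoids, against 2210 to 7222 CPM in the GFP lines. Labels number the replicates without saying whether they were separate animals or cultures, so every p-value measures the spread between these libraries only.

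Collagens are built from chains wound into a triple helix. Fibrillar chains (types I, II, III, V and XI) form the fibres of connective tissue, beaded-filament type VI and the fibril-associated types (such as IX, XII, XIV and XVI) decorate them, and network-forming type IV is the scaffold of the basement membrane under every epithelium. Serpinh1 encodes HSP47, a chaperone of the endoplasmic reticulum that binds folded procollagen, and Sparc encodes a secreted glycoprotein that binds collagen and calcium. In the gut wall most fibrillar collagen is made by fibroblasts, while epithelial cells also contribute basement membrane components.

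The promoters of 4 members are shown because the results turn on them: Serpinh1 and Sparc ranged widely over the enhancer libraries, and Col4a1 with Col4a2 form a head-to-head pair whose ratio was followed across all libraries. The windows run from 250 bases before to 50 after the annotated start (RefSeq, GRCm38.p6, 5′ to 3′ in the direction of the gene). Capitals mark a GC box (GGGCGG) or a CCAAT box (CCAAT), on either strand. Serpinh1 lies at chr7:99353190-99353489 on the minus strand, Sparc at chr11:55420031-55420330 on the minus strand, Col4a1 at chr8:11312777-11313076 on the minus strand and Col4a2 at chr8:11312555-11312854 on the plus strand.
Serpinh1: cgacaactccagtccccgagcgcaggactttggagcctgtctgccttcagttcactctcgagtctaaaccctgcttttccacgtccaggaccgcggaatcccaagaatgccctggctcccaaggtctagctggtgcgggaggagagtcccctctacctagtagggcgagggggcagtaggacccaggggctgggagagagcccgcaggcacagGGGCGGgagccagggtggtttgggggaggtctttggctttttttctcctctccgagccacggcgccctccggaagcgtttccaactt
Sparc: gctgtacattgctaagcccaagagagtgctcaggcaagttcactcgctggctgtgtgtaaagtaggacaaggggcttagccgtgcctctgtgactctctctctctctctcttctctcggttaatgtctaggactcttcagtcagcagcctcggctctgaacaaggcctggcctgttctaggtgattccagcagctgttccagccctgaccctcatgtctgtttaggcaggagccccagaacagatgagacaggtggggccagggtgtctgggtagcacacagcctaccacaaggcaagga
Col4a1: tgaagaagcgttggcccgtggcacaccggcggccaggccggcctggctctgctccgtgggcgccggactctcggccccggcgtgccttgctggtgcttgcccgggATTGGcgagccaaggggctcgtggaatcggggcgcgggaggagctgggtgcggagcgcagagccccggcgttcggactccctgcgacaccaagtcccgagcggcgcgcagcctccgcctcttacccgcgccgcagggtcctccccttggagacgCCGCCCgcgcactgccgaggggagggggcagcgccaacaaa
Col4a2: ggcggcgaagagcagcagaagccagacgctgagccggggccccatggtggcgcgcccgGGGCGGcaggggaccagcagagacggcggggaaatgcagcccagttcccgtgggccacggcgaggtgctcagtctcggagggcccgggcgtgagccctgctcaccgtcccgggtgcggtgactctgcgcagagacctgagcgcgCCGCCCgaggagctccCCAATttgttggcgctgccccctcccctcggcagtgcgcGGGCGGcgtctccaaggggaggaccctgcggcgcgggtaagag
The Col4a1 and Col4a2 windows overlap by 78 bases, since the starts used for them lie 21 bases apart on opposite strands. The GC box nearest the end of each window is the same one, read from opposite strands. The gene annotation itself extends Col4a1 to 11312889 and starts Col4a2 at 11312805, a longer shared stretch. No strand setting of the counting is given, so reads from the short stretch where both genes are annotated cannot be told apart. A RefSeq window was matched for 37 of the 46 members, 40 windows in all; Col12a1, Col14a1, Col1a1, Col22a1, Col26a1, Col2a1, Col4a3, Col5a2 and Col9a3 had none. Over both strands, 24 of the 40 windows (60.0%) held the GC box letters, against 35.7% of 32851 mouse promoter windows of the same length. CCAAT stood in 13 of 40 (32.5%) against 37.4%, TATAAA in 5 (12.5%) against 13.6%, and the CDX-type letters TTTATNG in 6 (15%) against 10.9%. Those 6 were Col11a2, Col13a1, Col17a1, Col4a6, Col6a4 and Col8a1. The AP-1 letters TGANTCA stood in 1 window (2.5%) against 7.8%, and the heat shock letters GAANNTTC in 1 (2.5%) against 7.9%. The GC box can share bases with neighbouring GC-rich letters, the motifs are counted independently of each other, and a match of letters is a description, not a binding site.

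Library totals ran from 6180498 to 11465309 counts, and 3 counts correspond to 0.262 to 0.485 CPM in a single library. Of the 46 members, Col24a1 and Col6a6 were at 0 in all 20 libraries. After the filter on low counts, 24 members were testable with the enhancer libraries and 26 with the line libraries, 18 of them in both sets; 14 passed in neither, with no count above 14. Cdx2, whose enhancer was deleted, had 2, 14 and 5 counts in homozygous libraries and 176, 65 and 82 in heterozygous libraries, against 186, 223 and 460 in wild-type libraries. Wild-type replicate 3 stands apart by Ddx3y, a Y-linked gene, with 793 counts against 0 to 2 in the other 8 enhancer libraries.

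Another 3 enhancer libraries stand apart by Wnt3a and fibroblast marker transcripts. Homozygous replicate 3 and heterozygous replicates 2 and 3 held 17541, 21190 and 27301 counts of Wnt3a, a secreted WNT ligand. The other deletion libraries held 956 and 2011 (homozygous) and 1674 (heterozygous), and wild-type libraries 0, 2 and 34. The summed level of 15 fibroblast markers was likewise highest in these 3, at 31.0, 63.1 and 631 CPM in homozygous and 52.3, 518 and 812 CPM in heterozygous libraries, against 11.5, 11.6 and 6.49 CPM in wild-type libraries. Most of this sum was Vim, at 458 CPM in homozygous replicate 3 and 538 CPM in heterozygous replicate 3. Of these markers, 6 (Pdgfra, Pdgfrb, Prrx1, S100a4, Twist2 and Vim) were higher in every deletion library than in every wild-type library. The margin was narrow for Twist2 (2 counts against 1) and Pdgfra (14 against 11). The others did not separate in this way. Lum, a fibroblast proteoglycan, was at 0 throughout and Dcn, another, had 0 to 5 counts. Thy1, Fap, Twist1, Acta2, Mgp and Cdh2 had 0 to 7 counts in the enhancer libraries. Nothing is read from the number of markers that separated. Tagln, an actin-binding protein of contractile cells, was lower in every heterozygous library (3.97 to 4.4 CPM) than in every wild-type library (4.84 to 5.17 CPM). Summed epithelial markers were 6196, 6541 and 4094 CPM in homozygous and 6853, 5242 and 3812 CPM in heterozygous libraries, against 7799, 6504 and 10045 CPM in wild-type libraries. All values of the enhancer experiment below are given with these 3 libraries, and the main ones also without them.

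The members took 0.0786%, 0.0648% and 0.270% of all counts in homozygous libraries and 0.118%, 0.197% and 0.255% in heterozygous libraries, against 0.0528%, 0.0549% and 0.0759% in wild-type libraries. Every heterozygous library was above every wild-type library, and homozygous replicate 2 was below wild-type replicate 3. The homozygous mean of 0.138% was 0.0717% without replicate 3. In the lines the share was 0.0633%, 0.0652% and 0.121% with CDX2, 0.122%, 0.0910% and 0.104% with HNF4A and 0.0670% and 0.0875% in small intestine organoids, against 0.118%, 0.120% and 0.129% with GFP. The make-up of the share differed as well. Network-forming chains, mainly Col4a1 and Col4a2, held 90.5% and 85.5% of the member counts in small intestine organoids, against 26.8%, 32.0% and 37.4% in GFP lines. Serpinh1 and Sparc together held 2.69%, 11.7% and 26.8% of member counts in homozygous and 5.44%, 32.9% and 34.6% in heterozygous libraries, against 0.166%, 0.304% and 0.193% in wild-type libraries. These are shares of reads, so a longer transcript weighs more. Because these libraries are bulk RNA, more cells of a type and more RNA per cell cannot be told apart.

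**Figure D1:**
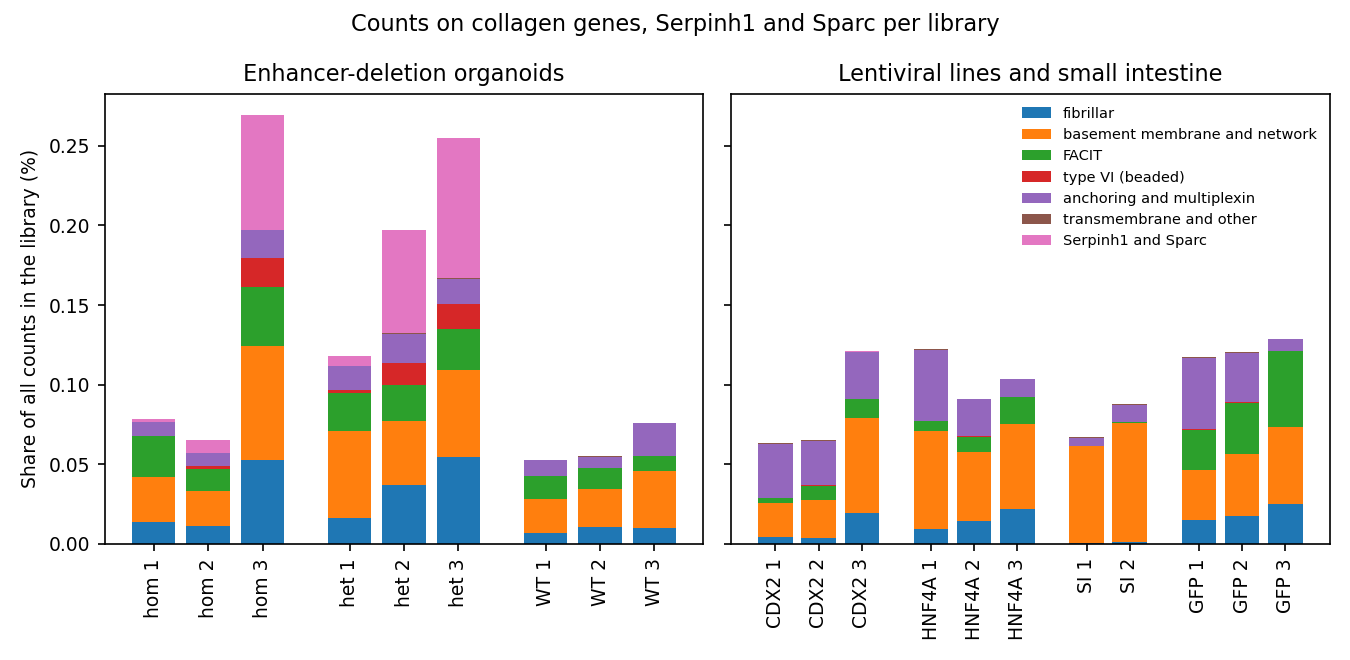
Share of all counts (percent, vertical axis) taken by the collagen genes, Serpinh1 and Sparc in each of the 20 libraries, stacked by structural class. Homozygous replicate 3 and heterozygous replicates 2 and 3 stand out by their fibrillar, beaded-filament and Serpinh1 plus Sparc layers, and the small intestine bars consist almost wholly of network-forming chains.

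The comparison of homozygous or heterozygous with wild-type organoids asks what the loss of the Cdx2 enhancer does in HNF4A-expressing gastric organoids. Among the members, Serpinh1, Sparc, the fibrillar chains Col1a1, Col3a1, Col5a1 and Col5a2, the type VI chain Col6a3 and the fibril-associated Col12a1 had many times more reads in deletion than in wild-type libraries, with deletion libraries differing widely among themselves. edgeR's quasi-likelihood test with Benjamini-Hochberg adjustment over 12593 genes called none of the 24 members in either comparison and none of all genes (0%). At an unadjusted p under 0.05, 11 members were higher in the homozygous comparison, where 398 genes (3.16%) were. In the heterozygous comparison 13 members were higher, where 838 genes (6.65%) were. No member was lower in either, where 1.43% and 2.28% of genes were. DESeq2 called 8 members higher in homozygous libraries, where it called 1.18% of genes higher, and 9 in heterozygous libraries, where it called 2.49% higher; limma-voom called 0 genes in both. Of these, at least 5 of the 8 (Col12a1, Col3a1, Col5a2, Col6a3 and Sparc) and at least 6 of the 9 (Col5a3 as well) passed the filter on low counts only through the deletion libraries. Members of this kind, such as Col12a1 and Col3a1, were also among those with an unadjusted p under 0.05 in the homozygous comparison. Nothing is therefore read from the number of members, by unadjusted p or by DESeq2, against the background.

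Serpinh1, on chromosome 7 at 99345375 to 99353239, had 16.5, 60.0 and 572 CPM in homozygous and 49.3, 526 and 669 CPM in heterozygous libraries, against 0.720, 1.69 and 1.15 CPM in wild-type libraries. All 6 deletion libraries were above all wild-type libraries, and the replicates of each deletion genotype spread widely, with homozygous replicate 1 and heterozygous replicate 1 lowest. The log2 fold change was 7.53 ± 1.67 (SE; edgeR adjusted p = 0.877, DESeq2 adjusted p = 3.09e-05) for homozygous and 8.47 ± 1.71 (edgeR adjusted p = 0.457, DESeq2 adjusted p = 1.57e-06) for heterozygous against wild type. Over 17 alternatives, the adjusted p of Serpinh1 was under 0.05 in only 2 for the homozygous comparison, both with DESeq2. The smaller, a DESeq2 adjusted p of 2.75e-12, came after the libraries richest in Serpinh1 were left out, a choice made on Serpinh1 itself. In the heterozygous comparison DESeq2 and the replicate block with all libraries gave values under 0.05, and the other edgeR fits and limma-voom did not. Sparc, on chromosome 11 at 55394159 to 55420080, had 4.48, 15.3 and 132 CPM in homozygous and 15.9, 109 and 193 CPM in heterozygous libraries, against 0.180, 0 and 0.382 CPM in wild-type libraries. The deletion libraries fell in the order they had for Serpinh1, except that homozygous replicate 2 and heterozygous replicate 1, which lay close together, changed places. The fitted log2 fold change of Sparc was 8.0 ± 1.86 (edgeR adjusted p = 0.877) for homozygous and 9.08 ± 1.87 (edgeR adjusted p = 0.457) for heterozygous against wild type, from 5 wild-type reads in all.

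Several fibrillar chains followed the same pattern. Col1a1, the major chain of type I collagen, had 8.16, 27.4 and 257 CPM in homozygous and 27.4, 190 and 320 CPM in heterozygous libraries, against 0.899, 0.842 and 2.29 CPM in wild-type libraries. Its log2 fold change was 6.21 ± 1.54 for homozygous and 7.08 ± 1.58 for heterozygous against wild type (edgeR adjusted p = 0.877 and 0.457). Col5a1, a regulatory chain at the core of type I fibrils, had 1.69, 8.87 and 104.5 CPM in homozygous and 12.2, 77.8 and 96.3 CPM in heterozygous libraries, against 0.360, 1.08 and 2.55 CPM in wild-type libraries. Here homozygous replicate 1 was below wild-type replicate 3, so the homozygous and wild-type groups overlapped. Col5a2, the second type V chain, had 8, 21 and 247 counts in homozygous and 26, 243 and 218 in heterozygous libraries, against 2, 2 and 0 in wild-type libraries. Col3a1, the chain of reticular type III fibres, had 9, 15 and 83 counts in homozygous and 3, 100 and 169 in heterozygous libraries, against 1, 1 and 0 in wild-type libraries. With 2 wild-type reads, the Col3a1 ratio to wild type was 50.6 (95% counting interval 13.7 to 423) for homozygous and 123 (33.8 to 1024) for heterozygous libraries. Col5a3 had 0, 6 and 79 counts in homozygous and 7, 78 and 59 in heterozygous libraries, against 1 in each wild-type library. Its lowest library, homozygous replicate 1, was below the wild-type libraries.

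Type VI and fibril-associated chains gave the same picture for single chains. Col6a3, the long chain of type VI collagen, had 3.68, 15.6 and 172 CPM in homozygous and 17.7, 133 and 144 CPM in heterozygous libraries, and 1 read in all wild-type libraries together. The ratio to wild type was 1576 (95% counting interval 282 to 62270) for homozygous and 2720 (488 to 107464) for heterozygous libraries, and intervals of this kind cover counting error only. Col12a1, which binds the surface of type I fibrils, had 4, 11 and 245 counts in homozygous and 25, 133 and 112 in heterozygous libraries, against 0, 1 and 1 in wild-type libraries. Its 2 wild-type reads give ratios of 123 (33.7 to 1021) for homozygous and 122 (33.6 to 1017) for heterozygous libraries. Col16a1, a minor fibril-associated chain, had 15.5, 31.9 and 132 CPM in homozygous and 29.7, 112 and 122 CPM in heterozygous libraries, against 13.0, 11.4 and 43.3 CPM in wild-type libraries. Its groups overlapped through wild-type replicate 3, and its log2 fold change was 1.41 ± 0.86 for homozygous and 1.97 ± 0.87 for heterozygous against wild type (edgeR adjusted p = 0.999 and 0.559).

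Some partner chains with which these collagens form heterotrimers had few reads. Col1a2, the second chain of type I collagen, had 0, 1 and 7 counts in homozygous and 2, 31 and 38 in heterozygous libraries, against 0, 1 and 0 in wild-type libraries, and stayed below the filter. Col6a1, the chain that pairs with Col6a2 and Col6a3, had 6, 14 and 51 counts in homozygous and 5, 27 and 87 in heterozygous libraries, against 5, 3 and 1 in wild-type libraries. Col6a2 had 0 counts in every homozygous library and 0, 4 and 2 in heterozygous libraries, against 0 in every wild-type library.

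Groups that did not overlap were counted as a description. Of the 24 tested members, 8 were higher in every homozygous than in every wild-type library (Serpinh1, Sparc, Col1a1, Col3a1, Col5a2, Col6a1, Col6a3 and Col12a1), where 4.73% of all genes were. In the heterozygous comparison 12 members did so, where 8.76% of genes did; the additional members were Col5a1, Col5a3, Col7a1 and Col4a1. Part of this follows from the filter, since Col12a1, Col3a1, Col5a2, Col5a3, Col6a1, Col6a3 and Sparc passed it only through the deletion libraries. Serpinh1, Col1a1 and Col5a1 were near its limit in wild-type libraries, with 8, 7 and 4 reads in their lowest one. Nothing is therefore read from these counts against the background. Fewer than 10 reads on average in wild-type libraries were found for 9 of the 24 members, and the other 15 had at least 10. Between homozygous and heterozygous libraries edgeR called no gene (0%), 33 genes including 0 members had an unadjusted p under 0.05, DESeq2 called 1 gene that is no member and limma-voom called 0. Serpinh1 averaged 216 CPM in homozygous and 415 CPM in heterozygous libraries, a log2 fold change of −0.94 ± 1.16. Only Col9a1, a fibril-associated chain of cartilage, did not overlap, being lower in homozygous libraries (1.16% of genes did so). It had few reads, 4 to 9 in homozygous and 10 to 19 in heterozygous libraries. The groups nearly met, at 0.937 CPM at most in homozygous and 1.05 CPM at least in heterozygous libraries.

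The network-forming chains and several other members differed less between the genotypes. Col4a1 had 118, 105 and 363 CPM in homozygous and 258, 210.5 and 263.5 CPM in heterozygous libraries, against 99, 105 and 187 CPM in wild-type libraries. Its log2 fold change of 0.58 ± 0.46 for homozygous against wild type turned to −0.22 without homozygous replicate 3, and the heterozygous value was 0.90 ± 0.46 (edgeR adjusted p = 0.999 and 0.610). Col4a2 had 86.6, 62.5 and 225 CPM in homozygous and 187, 112 and 169 CPM in heterozygous libraries, against 65.0, 65.6 and 129 CPM in wild-type libraries. Col18a1, whose C-terminal piece is endostatin, had 81.7, 79.8 and 160 CPM in homozygous and 144, 165 and 148 CPM in heterozygous libraries, against 104, 67.4 and 213 CPM in wild-type libraries. Col27a1, a fibrillar chain best known from cartilage, had 96.8, 56.7 and 86.0 CPM in homozygous and 100.3, 42.4 and 50.1 CPM in heterozygous libraries, against 62.4, 89.0 and 87.9 CPM in wild-type libraries. Col4a5, a basement membrane chain encoded on chromosome X, had a log2 fold change of 0.12 ± 0.36 for homozygous and 0.04 ± 0.36 for heterozygous against wild type. Wild-type replicate 3, the library with Ddx3y reads, had the lowest values of Col14a1 (160 counts), Col9a3 (34) and Col8a1 (3) among the 9 libraries. Without it the log2 fold change of Col14a1 was 0.42 for homozygous and 0.03 for heterozygous against wild type, beside 0.88 and 0.50 with it, and the gene passed in neither case.

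Within the 6 deletion libraries, which differed 40.5-fold in Serpinh1 CPM, a subset of members varied little relative to Serpinh1. Sparc reads were 20.7% to 32.3% of Serpinh1 reads, Col1a1 36.2% to 55.5%, Col6a3 21.5% to 36% and Col5a2 3.41% to 5.53%. Col5a1 ranged from 10.2% to 24.7% and Col12a1 from 1.79% to 5.32%. By contrast Col16a1 ranged from 18.2% to 94.0%, Col4a1 from 39.4% to 713%, Col18a1 from 22.1% to 495% and Col27a1 from 7.49% to 586%. Among the members also, Col3a1 ranged from 0.638% to 5.42%, Col6a1 from 0.438% to 3.61% and Col5a3 from 0% to 1.62%. Of transcripts outside the group, Wnt3a ranged from 326% to 576% of Serpinh1 reads and Nog, a secreted BMP antagonist, from 9.74% to 12.8%, while Vim, a mesenchymal intermediate filament, ranged from 61.5% to 104% and Prrx1, a mesenchymal transcription factor, from 5.42% to 8.86%. Others varied more: Rspo3, a secreted enhancer of WNT signalling, ranged from 10.3% to 30.7%, the receptor gene Pdgfrb from 2.44% to 8.43% and S100a4 from 4.26% to 18.0%. The epithelial genes Epcam and Cdh1 ranged from 119% to 7078% and from 99.6% to 6543%. Nog, Wnt3a, Vim and Prrx1 thus moved with these members, Nog most closely, while Rspo3, Pdgfrb and S100a4 followed them less closely. Pdgfra and Twist2, also higher in every deletion than in every wild-type library, were not set against Serpinh1. The part of all these transcripts in the differences from wild type was not tested.

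**Figure D2:**
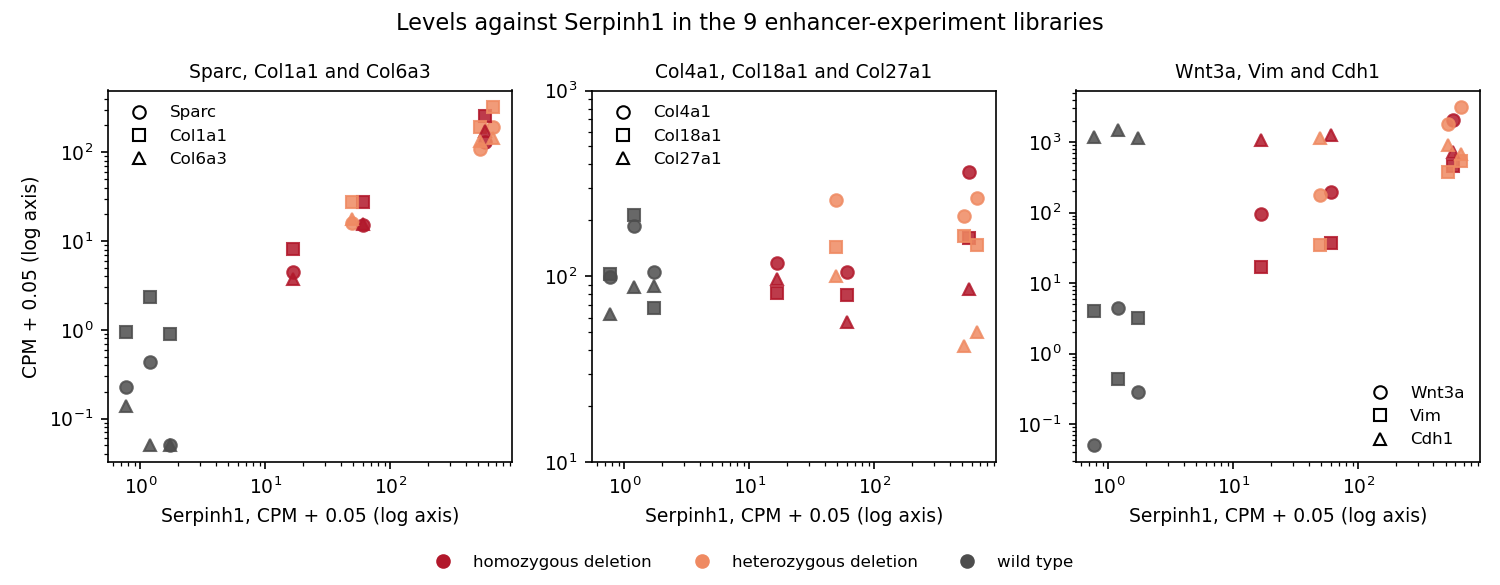
CPM of 9 genes (vertical, log axis) against Serpinh1 (horizontal, log axis) in the 9 enhancer-experiment libraries. Sparc, Col1a1 and Col6a3, and also Wnt3a and Vim, line up with Serpinh1 over the deletion libraries, while Col4a1, Col18a1, Col27a1 and Cdh1 stay within a narrow band.

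Without homozygous replicate 3 and heterozygous replicates 2 and 3, Serpinh1 was still at 16.5 and 60.0 CPM in homozygous and 49.3 CPM in heterozygous libraries, against at most 1.69 CPM in wild-type libraries. In that reduced set edgeR called 0 members in the homozygous comparison. DESeq2 called 4 there, Col1a1, Col6a3, Serpinh1 and Sparc, and 57 of 12767 genes in all. The heterozygous arm is then a single library, so no calls are given for it. Serpinh1 chose the libraries left out, and Col1a1, Col6a3 and Sparc varied little relative to Serpinh1. None of the 4 calls is therefore independent of that choice. The 3 libraries left out were those with the most Serpinh1; above the other deletion libraries in all 3 were 14 of the 24 tested members and 16.9% of all tested genes, and since Serpinh1 defined this split nothing is read from the count.

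Several listed enzymes and partners of collagen also had higher means in deletion than in wild-type libraries. Among 17 tested genes of collagen modification and folding and 9 of maturation, edgeR called 0 in either comparison with wild type. Their median log2 fold changes were 0.30 and 3.52 in the homozygous and 0.40 and 4.38 in the heterozygous comparison, beside a median over all tested genes of 0.00 in each. Maturation genes such as Adamts14 and Lox (0 reads in wild-type libraries) and Pcolce2 (0 to 7) passed the filter only through the deletion libraries. The filter thus fixes part of such medians, here and in the lists below, and nothing is read from them against the background. Rcn3, a calcium-binding protein of the endoplasmic reticulum, averaged 27.3 ± 38.9 CPM in homozygous and 47.6 ± 41.4 CPM in heterozygous libraries (SD, n = 3 each), against 0.0424 ± 0.0735 CPM in wild-type libraries. Loxl2, a lysyl oxidase that crosslinks collagen, averaged 48.1 ± 60.8 CPM in homozygous and 86.9 ± 57.4 CPM in heterozygous libraries, against 4.10 ± 1.76 CPM in wild-type libraries (SD, n = 3 each). Ddr2, a receptor for fibrillar collagen, averaged 32.6 ± 47.9 CPM in homozygous and 54.7 ± 39.9 CPM in heterozygous libraries, against 0.397 ± 0.0464 CPM in wild-type libraries (SD, n = 3 each). Mrc2, an endocytic collagen receptor, averaged 14.5 ± 20.8 CPM in homozygous and 31.4 ± 27.2 CPM in heterozygous libraries, against 0.0600 ± 0.104 CPM in wild-type libraries (SD, n = 3 each). In each of these genes the SD of the homozygous libraries exceeded their mean. Basement membrane partners (11 tested) and Sparc-related matrix genes (9 tested) also had 0 calls, with medians of 0.10 and −0.07 in the homozygous and −0.12 and 0.19 in the heterozygous comparison. The same held for degradation genes (6 tested, medians 0.51 homozygous and 0.78 heterozygous) and receptors (6 tested, medians −0.17 homozygous and −0.10 heterozygous).

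The second experiment asks which gastric or intestinal genes change when CDX2 or HNF4A is expressed in gastric organoids, and how near the lines come to small intestine organoids. Small intestine organoids differed from GFP lines in many members. Here edgeR called 3 of the 26 tested members higher (Col4a1, Col4a2 and Col26a1), where it called 14.2% of 12720 genes higher, and 10 lower, where it called 12.9% lower. The 10 were Col2a1, Col4a5, Col6a1, Col7a1, Col8a1, Col9a3, Col11a2, Col14a1, Col16a1 and Col27a1. Col26a1 passed the filter on low counts through the small intestine libraries and not through the GFP lines. Col8a1, at 0 reads in small intestine organoids, passed it only through gastric lines. Nothing is therefore read from these numbers of members against the background. Without GFP line 1, 2 or 3 the count of members was 9, 9 and 16. Calls over all genes were then 2689, 2197 and 2414, against 3448 with all libraries. Leaving out either small intestine library leaves a single one, whose spread would be taken from the other groups, so no count is given for those fits. Small intestine organoids had 2 libraries, and a different tissue of origin cannot be told apart from any other difference between these cultures.

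Network-forming chains went in opposite directions. Col4a2 had 312.5 and 366 CPM in small intestine organoids, against 101, 115 and 149 CPM in GFP lines, a log2 fold change of 1.48 ± 0.39 (edgeR adjusted p = 0.0217), which did not pass without small intestine replicate 1 or 2 or without GFP line 1 or 2. Col4a1 had 305 and 372 CPM in small intestine organoids, against 97.2, 123 and 181 CPM in GFP lines, and its log2 fold change of 1.34 ± 0.45 was just past the threshold (edgeR adjusted p = 0.0497). With relative log expression size factors (edgeR adjusted p = 0.0540), with no filter (edgeR adjusted p = 0.0515) and without some single libraries (edgeR adjusted p up to 0.160) it was not called. Col4a5 had 3.54 and 15.7 CPM in small intestine organoids, against 110, 120 and 108 CPM in GFP lines, a log2 fold change of −3.56 ± 0.54 (edgeR adjusted p = 0.00272). Col4a5 is annotated at 141475370 to 141689236 on chromosome X, next to Col4a6, which was not called. Col8a1, a short-chain collagen of sheet-like networks, had 0 reads in both small intestine libraries, against 39, 170 and 102 reads in GFP lines, at least 76.4-fold lower when set against 3 reads over the small intestine group (edgeR adjusted p = 0.0138).

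Among the fibril-associated chains, Col14a1, which binds the surface of collagen fibrils, had 2.05 and 0.110 CPM in small intestine organoids, against 173, 233 and 349 CPM in GFP lines (log2 fold change −7.79 ± 1.43, edgeR adjusted p = 0.00547). Col16a1 fell by 6.42 ± 1.13 on the log2 scale (edgeR adjusted p = 0.00471) and Col9a3, a chain of cartilage type IX collagen, by 7.41 ± 1.66 (edgeR adjusted p = 0.0115). They had only 4 and 5 reads in small intestine organoids, so the size of these fold changes is uncertain. Of the fibrillar chains, Col27a1 had 0.186 and 1.76 CPM in small intestine organoids, against 118, 128 and 118 CPM in GFP lines (log2 fold change −7.00 ± 1.29, edgeR adjusted p = 0.00560). Col11a2 fell by 5.00 ± 1.11 (edgeR adjusted p = 0.0110) and Col2a1, the main chain of cartilage, by 3.39 ± 0.94 (edgeR adjusted p = 0.0257). Col2a1 had only 4 reads in small intestine organoids, which leaves its fold change uncertain. Col7a1, which forms the anchoring fibrils below the skin's basement membrane, had 1.58 and 0.988 CPM in small intestine organoids, against 5.66, 7.55 and 9.43 CPM in GFP lines (log2 fold change −2.53 ± 0.63, edgeR adjusted p = 0.0167). Col6a1 had 3 reads in small intestine organoids, a ratio of 0.0714 to the GFP lines (95% counting interval 0.0143 to 0.220; edgeR adjusted p = 0.0457); it passed in 8 of 17 alternatives, with an adjusted p of up to 0.169. Col26a1, a small collagen of uncertain assembly, had 38 and 16 reads in small intestine organoids, against 2, 0 and 0 reads in GFP lines, a ratio of 36.6 (9.67 to 310; edgeR adjusted p = 0.0165).

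Several members with sizeable values were not called. Col18a1 had 48.8 and 109 CPM in small intestine organoids, against 448, 308 and 61.9 CPM in GFP lines, where GFP line 3 lay between the small intestine libraries (log2 fold change −1.79 ± 0.82, edgeR adjusted p = 0.128). Col20a1 had a log2 fold change of −2.84 ± 0.99 (edgeR adjusted p = 0.0573) and Col1a1 of −2.27 ± 0.85 (edgeR adjusted p = 0.0704). Serpinh1 had 3 and 6 reads in small intestine organoids, against 9, 14 and 19 reads in GFP lines (edgeR adjusted p = 0.160), and over the 11 line libraries it had 3 to 19 reads. Sparc had 0 to 10 reads in the 11 libraries and was not tested. Wnt3a, a transcript that moved with Serpinh1 in the enhancer experiment, had 0 reads in all 11.

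**Figure D3:**
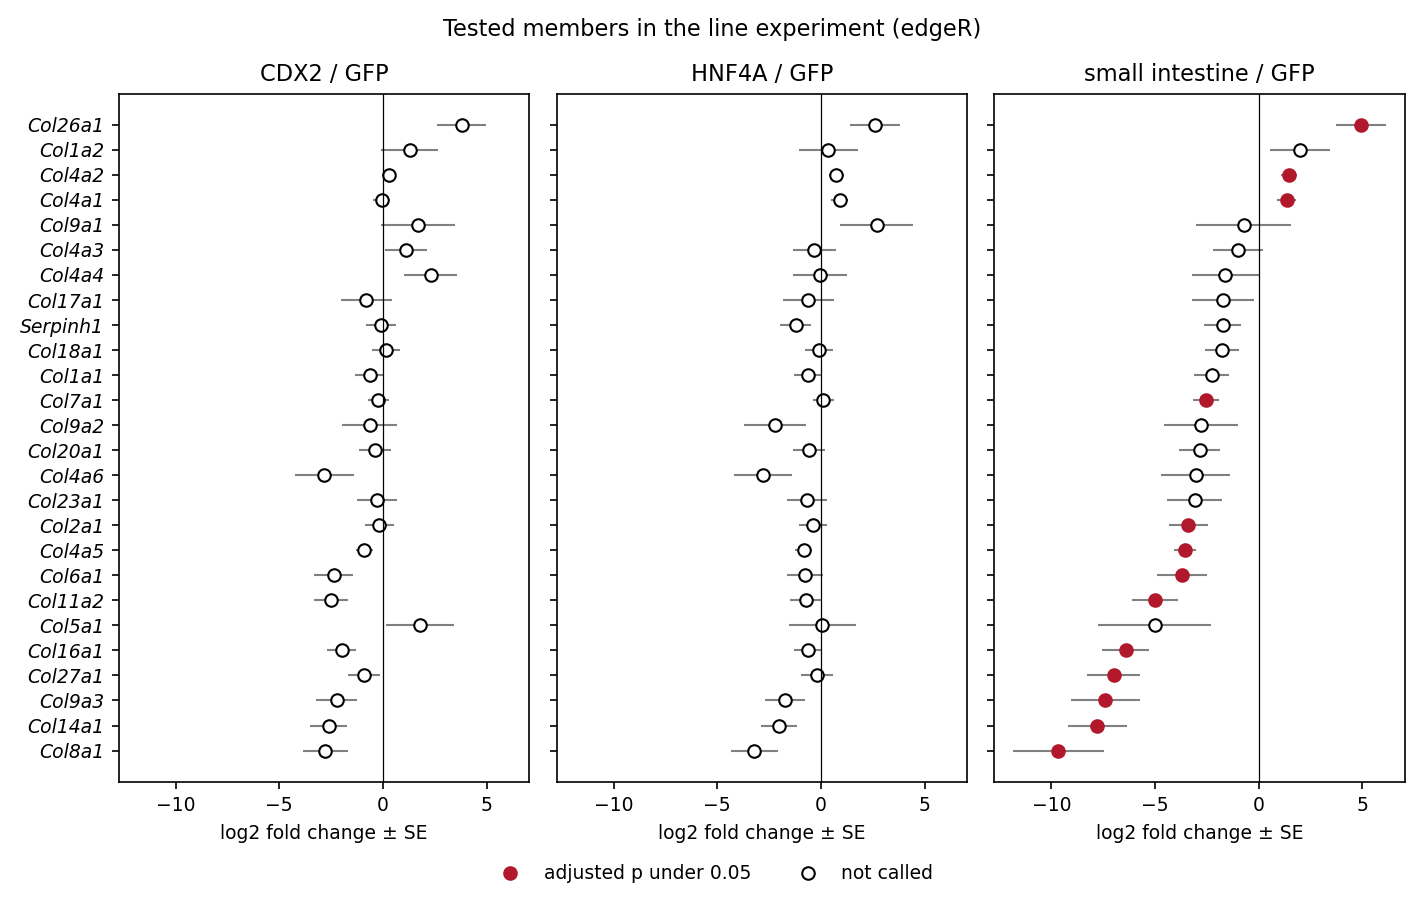
Log2 fold change with SE of the 26 tested members in CDX2 lines, HNF4A lines and small intestine organoids, each against GFP lines; filled points passed edgeR's adjusted p of 0.05. All 13 filled points are in the small intestine column; Col8a1 has 0 reads there, so its fitted value is no bound, and members with 1 to 3 reads in a group depend on the prior count.

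With CDX2 against GFP, edgeR called 52 genes (0.409%) and none of the 26 members. At an unadjusted p under 0.05, 1 member was higher, where 6.64% of genes were, and 6 were lower, where 4.60% were. DESeq2 called 1 member lower, Col11a2, where it called 1.14% of genes lower, and limma-voom called no member. Non-overlapping groups were found for 1 member that was higher, Col26a1, where 8.23% of genes were, and for 4 that were lower, Col4a5, Col6a1, Col14a1 and Col16a1, where 7.76% of genes were. Col26a1 passed the filter on low counts through libraries other than the GFP lines, so nothing is read from its place in this count. Col14a1 had 6.03, 69.5 and 47.6 CPM in CDX2 lines, against 173, 233 and 349 CPM in GFP lines, so each CDX2 line was below each GFP line (log2 fold change −2.62 ± 0.89, edgeR adjusted p = 0.281). Col26a1 had 3, 21 and 5 reads in CDX2 lines, against 2, 0 and 0 reads in GFP lines (ratio 15.9, 95% counting interval 4.02 to 137). Same-numbered gastric lines deviated together, so line number was also fitted as a block. The block was fitted over all 11 line libraries. Small intestine organoids 1 and 2 thus shared blocks with gastric lines 1 and 2, although their numbers did not pair, and this bears on every block result given here. With the block 2 members were called lower in CDX2 than in GFP lines, Col11a2 (edgeR adjusted p = 0.0105) and Col9a3 (edgeR adjusted p = 0.00989), where 1.96% of genes were called lower. Col11a2 had 6.84, 6.03 and 18.0 CPM in CDX2 lines, against 16.3, 40.0 and 117 CPM in GFP lines. Col9a3 had 1.41, 4.58 and 24.0 CPM in CDX2 lines, against 15.9, 38.8 and 82.8 CPM in GFP lines. In both genes each CDX2 line was below the GFP line of the same number, while CDX2 line 3 was above GFP line 1, and without the block neither passed (edgeR adjusted p = 0.251 for Col11a2 and 0.438 for Col9a3). Over 17 alternatives the adjusted p of Col11a2 ran from 0.0105 to 0.699. Over all genes the block gave 578 calls.

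CDX2 line 3 differed from the other CDX2 lines in several members. Col27a1 had 12, 27.4 and 156.5 CPM in CDX2 lines, against 118, 128 and 118 CPM in GFP lines, so lines 1 and 2 were below and line 3 above every GFP line. Its log2 fold change was −0.90 ± 0.78 with all CDX2 lines and −2.63 without line 3 (edgeR adjusted p = 0.750 and 0.0684). The basement membrane chains Col4a3 and Col4a4, another head-to-head pair, had 63 and 74 reads in CDX2 line 3, against at most 16 and 13 reads in any other library of the lines. Cdx2 itself was at 200, 288 and 62.0 CPM in the CDX2 lines, lowest in line 3, against 3.95, 7.44 and 3.19 CPM in GFP lines. Summed gastric markers were 86.4, 219 and 1080 CPM in the CDX2 lines, highest in line 3, against 2210 to 7222 CPM in GFP lines. The part of these differences in the values of line 3 was not tested. Line number also marked Col5a1, at 16.7 CPM in CDX2 line 1, 6.04 CPM in HNF4A line 1 and 5.66 CPM in GFP line 1, against 0.113 to 3.94 CPM in the gastric lines numbered 2 and 3.

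With HNF4A against GFP, edgeR called 18 genes (0.142%) and none of the 26 members. At an unadjusted p under 0.05, 1 member was higher, where 4.29% of genes were, and 2 were lower, where 1.47% were. Neither DESeq2 nor limma-voom called a member. The block raised the calls over all genes to 100, with 0 members. Non-overlapping groups were found for 3 members that were higher, Col4a1, Col4a2 and Col26a1, where 6.69% of genes were, and for 4 that were lower, Col4a5, Col8a1, Col14a1 and Serpinh1, where 4.93% of genes were. Col26a1 had only 3 to 6 reads in HNF4A lines and 0 to 2 in GFP lines, and passed the filter on low counts through other libraries. Col4a1 had 309.5, 206.5 and 244 CPM in HNF4A lines, against 97.2, 123 and 181 CPM in GFP lines (log2 fold change 0.92 ± 0.41, edgeR adjusted p = 0.856). Col4a2 had 269.5, 155 and 188 CPM in HNF4A lines, against 101, 115 and 149 CPM in GFP lines (log2 fold change 0.74 ± 0.36, edgeR adjusted p = 0.914). Col8a1 had 0.232, 2.26 and 1.22 CPM in HNF4A lines, against 4.16, 18.1 and 12.5 CPM in GFP lines (log2 fold change −3.20 ± 1.11, edgeR adjusted p = 0.623). These members were also named in the small intestine comparison, which shares the GFP lines, so their values in the comparisons are not independent. Between CDX2 and HNF4A lines edgeR called 3 genes (0.0236%) and no member. Lower at an unadjusted p under 0.05 were 2 members, where 2.59% of genes were. DESeq2 and limma-voom called no member, and no member had groups that did not overlap. Col4a1 averaged 128 CPM in CDX2 and 253 CPM in HNF4A lines (log2 fold change −0.99 ± 0.41, edgeR adjusted p = 0.883), and CDX2 line 3, at 226 CPM, lay within the HNF4A range.

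The ratio of Col4a1 to Col4a2 reads was compared because their products assemble in one trimer. It was 0.786, 0.779 and 0.919 in CDX2 lines, 1.15, 1.33 and 1.30 in HNF4A lines and 0.976 and 1.02 in small intestine organoids, against 0.960, 1.07 and 1.21 in GFP lines. All CDX2 lines were below all GFP and all HNF4A lines. The two-sided exact permutation test gave p = 0.1 for CDX2 against GFP and for CDX2 against HNF4A, the smallest p that 3 against 3 libraries allow, 0.2 for HNF4A against GFP and 0.5 for small intestine against GFP. After adjustment over the 7 comparisons the smallest was 0.35; with 3 libraries a group this test could not reach 0.05. The test leaves out line number: within same-numbered lines the ratio was below GFP in each of 3 CDX2 lines and above GFP in each of 3 HNF4A lines, and 3 pairs are too few for a paired exact test to pass. In the enhancer experiment the ratio was 1.36, 1.68 and 1.62 in homozygous and 1.38, 1.88 and 1.56 in heterozygous libraries, against 1.52, 1.61 and 1.45 in wild-type libraries (exact permutation p = 0.9 for homozygous and 0.8 for heterozygous against wild type). Homozygous replicate 3, with the most Col4a1, had a ratio within the range of the other enhancer libraries.

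**Figure D4:**
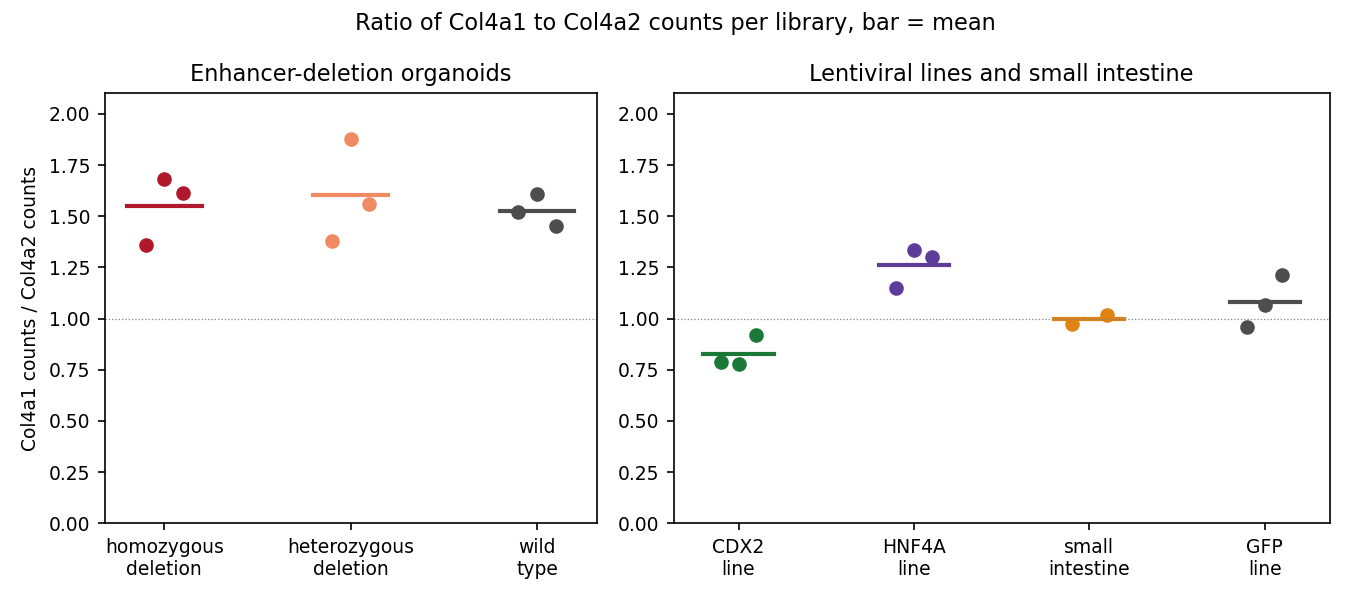
Ratio of Col4a1 to Col4a2 counts (vertical axis) in each of the 20 libraries, by group. The 3 CDX2 lines sit at 0.779 to 0.919, below all HNF4A lines (1.15 to 1.33) and all GFP lines (0.960 to 1.21).

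Several genes that modify, mature or degrade collagen fell in small intestine organoids against GFP lines. Of 17 tested genes of collagen modification and folding, 8 fell and 0 rose, with a median log2 fold change of −1.10 beside −0.01 over all tested genes; of all genes, 12.9% were called lower and 14.2% higher, the background for each list here. Among them Plod1, a lysyl hydroxylase, averaged 6.90 ± 2.51 CPM in small intestine organoids (SD, n = 2), against 40.2 ± 3.85 CPM in GFP lines (SD, n = 3), and P4hb, a subunit of prolyl hydroxylase, averaged 867 ± 80.1 CPM in small intestine organoids, against 1571 ± 226 CPM in GFP lines. The same n holds for the SDs that follow. In maturation (median −1.53), 3 of 7 tested genes fell and 1 rose, Loxl3, a lysyl oxidase, at 25.0 ± 10.4 CPM in small intestine organoids against 9.72 ± 0.924 CPM in GFP lines. Of 5 tested genes of collagen degradation and its inhibitors (median −2.60), 4 fell, among them Timp2, an inhibitor of matrix metalloproteinases, at 19.4 ± 0.681 CPM in small intestine organoids, against 207 ± 99.2 CPM in GFP lines. None of 5 tested collagen receptor genes was called (median −0.22). Of 12 basement membrane partners (median −0.78), 5 fell and 1 rose: Lamb2, a laminin chain, was at 13.9 ± 8.10 CPM in small intestine organoids against 262 ± 117 CPM in GFP lines, and Nid1, which links laminin to type IV collagen, was at 46.5 ± 5.88 CPM in small intestine organoids, against 2.32 ± 1.81 CPM in GFP lines. Of 9 genes of the Sparc family and related matrix (median −3.42), 3 fell, among them Fn1, fibronectin, at 14.0 ± 18.4 CPM in small intestine organoids, against 931 ± 794 CPM in GFP lines. Nid1 thus rose together with Col4a1 and Col4a2, whereas 5 laminin, perlecan and agrin genes fell.

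In the gastric lines edgeR called 0 of these listed genes without the block. With the block, Nid1 rose in CDX2 lines, at 14.7 ± 8.22 CPM against 2.32 ± 1.81 CPM in GFP lines (SD, n = 3 each; edgeR adjusted p = 0.0419), and Mia3, which helps load collagen for export, fell to 132 ± 17.4 CPM in CDX2 lines, against 255 ± 82.6 CPM in GFP lines (edgeR adjusted p = 0.0203). Over all genes the block called 2.59% higher and 1.96% lower in CDX2 than in GFP lines. In HNF4A lines Fbln1, a fibulin of the basement membrane, rose with the block to 229 ± 72.9 CPM, against 53.5 ± 30.6 CPM in GFP lines (SD, n = 3 each; edgeR adjusted p = 0.0280), where the block called 0.723% of genes higher. Nid1 averaged 28.8 ± 27.9 CPM in HNF4A lines and was not called with the block (edgeR adjusted p = 0.0519). The lists were assembled with earlier results of these data known, so their counts describe these libraries only.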

How the data were processed

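Values are raw counts of reads per gene symbol and library, as deposited by the authors in a single table of 20 columns. Per the labels' protocols, RNA came from organoids lysed in TRIzol, was cleaned on Qiagen columns with a DNase step, and poly-A libraries were sequenced as paired reads on an Illumina instrument. The submitters' processing notes name STAR for the enhancer libraries, and Bowtie2, STAR and Cell Ranger without a role for the others; counting program, strand and annotation have no source here, so overlapping or antisense genes and reads shared by paralogs are uncertain.

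The enhancer libraries (9) and the lines with small intestine organoids (11) were fitted apart. Counts were filtered (filterByExpr, minimum count 10, minimum total 15), scaled by TMM and tested two-sided by the robust quasi-likelihood method of edgeR 4.0.16 (R 4.3.3), with Benjamini-Hochberg adjustment over all tested genes and calls at an adjusted p under 0.05. Each SE is the size of the log2 fold change over the root of its F statistic. Between replicates the chi-square per degree of freedom of the counts was 21.7 to 84.1, so no 2 libraries were alike within counting noise. DESeq2 1.42.0, limma 3.58.1 (voom), other size factors, no filter, only the 2 groups, leaving out each library and a replicate block were alternatives. Deviations of same-numbered gastric lines correlated at 0.363 to 0.785 (9 pairs) and of homozygous with heterozygous libraries at 0.246 to 0.517 (3 pairs), which was taken as pairing; with small intestine (−0.144 to 0.121) or wild type (−0.336 to 0.264) numbers did not pair. The block was still fitted over all libraries of an experiment, with small intestine and wild-type libraries in the blocks of their numbers. Ratios and floors (3 counts) cover counting error only, since reads carry no molecular identifiers. Ratio intervals are 95% and exact. The pipeline was tested on simulated data.

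By rule the text names the 8 members with the highest mean CPM in each experiment, every called member, the 3 with the smallest p in each direction per comparison, Serpinh1 and Sparc, and, of other listed genes, called ones and at most 2 per list and comparison with the smallest p; further members were named after their values were seen. The members and lists (182 symbols, all in the table) were chosen with earlier results of these data known. Promoter windows and positions come from RefSeq tables of GRCm38.p6.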

Additional observations from a re-analysis of the deposited data

How the results depend on the processing

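The count of called members changed with the tool in the enhancer experiment. Against 0 with edgeR, DESeq2 called 8 members in homozygous and 9 in heterozygous against wild-type organoids (180 and 327 of all genes, against 0). A replicate block, with numbers that do not pair deletion with wild-type libraries, gave 5 in heterozygous against wild type (Col1a1, Col5a1, Col6a3, Serpinh1 and Sparc; 51 genes) and 0 in homozygous against wild type. An alternative chosen after seeing the data left out heterozygous replicates 2 and 3 and homozygous replicate 3. In homozygous against wild type DESeq2 then called 4 members (57 of all genes) and edgeR 0. The libraries were chosen by Serpinh1, 1 of the 4, and the others varied with it, so these calls are not independent. A single heterozygous library remained, so no calls are given for that group. In CDX2 against GFP lines, DESeq2 called 1 member (Col11a2) and the line-number block 2, against 0; over all genes they called 493 and 578, against 52. In HNF4A against GFP and CDX2 against HNF4A lines, DESeq2 called 221 and 139 of all genes and the block 100 and 28, against 18 and 3. For small intestine organoids against GFP lines, counts ran from 9 to 16 when single gastric lines were left out, against 13. The block, whose numbers do not pair small intestine with gastric libraries, gave 16. Over all genes those fits called 2197 to 3619 and the block 4966, against 3448. No count is given for fits with a single small intestine library. In the other comparisons the count stayed at 0 under every alternative run. The cause of these changes was not tested. Of 1453 alternative fold changes of named members, 38 lost the threshold, 28 gained it and 63 changed sign; no value that changed sign was called, and no called value was reversed. Numbers that pair homozygous with heterozygous libraries, or gastric lines, changed no other member's call. The mean share of counts in homozygous libraries was 0.0717% without replicate 3, against 0.138% with it, a move within the large SD between its replicates; no other group's mean share moved by more than 1.5 times.

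Depth limits members such as Serpinh1 and Sparc in the lines, at 0 to 19 reads, and 14 members that could not be tested; with 2 to 3 libraries a group, spread between libraries limits the rest.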
